A study of Mus musculus with 8 samples.

Results

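Long noncoding RNAs that are kept in the nucleus were followed through the striatum of inbred mice. They are Malat1, Neat1, Meg3, Rian, Mirg, Miat, Snhg11 and Snhg14, chosen by name as the rows of these noncoding RNAs, and they make up 8 of the 32285 genes in the count matrices. Single nuclei were profiled by 10x Multiome, which reads RNA and open chromatin from the same nucleus, and an RNA assay on nuclei retains transcripts that never leave them. Together the 8 RNAs held 4.69% of all counts in the annotated nuclei, of which Malat1 alone held 4.05%.

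The mice were 12 weeks old and came from 8 inbred strains: A/J, C57BL/6, 129S1/SvImJ, NOD/ShiLtJ, NZO/HlLtJ, CAST/EiJ, PWK/PhJ and WSB/EiJ. C57BL/6 is written here without its substrain, since the authors' table gives C57BL/6NJ and the series' design text C57BL/6J. None carried a treatment or an engineered allele according to the labels. The 32 striata formed 4 pools, called batches, and each batch held 1 mouse of every strain, so that a replicate here is 1 mouse, named by its strain and batch. The authors assigned each nucleus to a strain and to 1 of 18 annotated clusters. The sex of each mouse was not used here, and within a strain it cannot be told apart from the batch.

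Malat1 is an abundant transcript of nuclear speckles, where splicing factors are stored. Neat1 is the scaffold of paraspeckles, bodies that form in the nucleus around this RNA. Meg3, Rian and Mirg are made from the maternal copy of the imprinted Dlk1-Dio3 locus, and Rian and Mirg are the hosts of many small nucleolar RNAs and microRNAs. Snhg14 is the host of the small nucleolar RNA clusters of the imprinted Prader-Willi and Angelman locus, where its extension over Ube3a silences the paternal Ube3a copy in neurons. Miat binds splicing factors in nuclear granules of neurons, and Snhg11 is a neuronal host gene of small nucleolar RNAs.

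On GRCm38.p6 of RefSeq, Meg3 (chr12:109540996-109571729), Rian (chr12:109603945-109661716) and Mirg (chr12:109734981-109749458) lie in a row on the + strand, with 32215 bases between Meg3 and Rian and 73264 between Rian and Mirg. Malat1 (chr19:5795690-5802672, - strand) and Neat1 (chr19:5824708-5845480) are neighbours at 22035 bases. Miat is at chr5:112213228-112228948 (- strand) and Snhg11 at chr2:158375713-158386474 (+ strand). Snhg14 spans 1177441 bases of chromosome 7 (chr7:59272737-60450177, - strand), holds 206 small nucleolar RNA genes and overlaps Ube3a, Snrpn and Snurf. The gene models of Meg3 and Rian overlap that of Rtl1. Whether counting used the strand is not given in the sources used here, so reads of overlapping genes may be shared between them.

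RefSeq promoters, 250 bases before and 50 after the start, were found for 7 of the 8 genes (for Meg3, 2 start sites), and all but Neat1 had one. The first Meg3 promoter (chr12:109540746-109541045, + strand) and the Snhg11 promoter (chr2:158375463-158375762, + strand) are shown because Meg3 and Snhg11 carry the neuronal results, and the Malat1 promoter (chr19:5802623-5802922, - strand) because it lies under a peak. Capitals mark a cyclic AMP response element and a stretch with a TATA box.
Meg3: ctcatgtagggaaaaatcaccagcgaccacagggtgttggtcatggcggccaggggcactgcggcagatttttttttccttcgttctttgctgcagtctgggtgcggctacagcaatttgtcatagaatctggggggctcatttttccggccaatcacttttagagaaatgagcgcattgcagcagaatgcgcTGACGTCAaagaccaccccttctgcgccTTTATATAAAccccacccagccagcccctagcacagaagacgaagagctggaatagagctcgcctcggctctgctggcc
Snhg11: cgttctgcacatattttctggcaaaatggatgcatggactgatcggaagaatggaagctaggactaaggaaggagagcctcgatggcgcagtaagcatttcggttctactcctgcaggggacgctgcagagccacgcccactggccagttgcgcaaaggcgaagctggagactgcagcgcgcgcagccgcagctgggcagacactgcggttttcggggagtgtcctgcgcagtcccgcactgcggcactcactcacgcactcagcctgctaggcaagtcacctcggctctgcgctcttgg
Malat1: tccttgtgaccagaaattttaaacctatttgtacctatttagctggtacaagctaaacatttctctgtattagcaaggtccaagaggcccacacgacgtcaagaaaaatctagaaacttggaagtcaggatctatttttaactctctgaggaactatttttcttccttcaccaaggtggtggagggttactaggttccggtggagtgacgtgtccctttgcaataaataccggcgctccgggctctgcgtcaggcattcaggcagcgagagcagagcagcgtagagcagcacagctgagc
Both strands were searched for TGACGTCA (the cyclic AMP response element), its shorter core TGACG (which overlaps it), GGGCGG (a GC box), TATAAA (a core promoter box) and CACGTG (an E box). Counting from 1 at the 5′ end, the Meg3 promoter held TGACGTCA at 194 and TATAAA at 222 and 226, the latter pair overlapping on opposite strands. TGACGTCA was present in 1.79% of 32851 promoters of this length, and TATAAA in 13.6%. The Malat1 promoter held TGACG at 97, 206 and 248, a core found in 20.8% of promoters, and the Snhg11 window held none of the 5 motifs, where CACGTG was in 7.15% of promoters. The Miat promoter (chr5:112228899-112229198, - strand) held GGGCGG at 27, as did 35.7% of all promoters somewhere in the window. A peak of the authors' chromatin accessibility set covered the start of Malat1, Rian and Snhg14, while 53.1% of all promoters overlapped a peak. The nearest peak was 311 bases upstream of the first Meg3 start, 299 upstream of Mirg, 160 downstream of Miat and 633 downstream of Snhg11.

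The Dlk1-Dio3 RNAs are shown with microRNAs that their gene models hold, since these sequences tell the 3 host RNAs apart. RefSeq places 2 microRNA genes in Meg3, 3 in Rian and 10 in Mirg. Capitals mark the seed, bases 2 to 8, by which a microRNA recognises its targets.
miR-770-5p (in Meg3): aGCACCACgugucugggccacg
miR-370-3p (in Rian): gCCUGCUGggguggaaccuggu
miR-453 (in Mirg): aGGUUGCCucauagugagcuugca
miR-496a-5p (in Mirg): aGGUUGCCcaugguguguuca
miR-410-3p (in Mirg): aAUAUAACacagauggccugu
Among the 19 mature microRNAs in Mirg there were 18 seeds, since miR-453 and miR-496a-5p share GGUUGCC. Mature microRNAs themselves were not measured.

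Between 11826 and 15626 annotated nuclei per batch gave 43538698 to 77698312 counts, and batch 3 was the shallowest, with a median of 3232 counts per nucleus against 4593 to 4931. Of 54141 distinct barcodes, 1517 occurred in 2 or more batches. The authors' cluster names were checked against lists of 3 or more marker genes, some shared by related clusters, and mostly held; the clusters called unknown have no name to check. Exceptions were Rgs5, a mural marker highest in endothelium, Pdgfra, highest in the fibroblast cluster, and Tac1, highest in the second Drd1+ cluster. Levels below are CPM, counts scaled to a library total of 1000000, of summed counts of 1 mouse in 1 cluster with at least 10 nuclei. The clusters were made from the same nuclei and genes, so levels across clusters are described without a test.

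Malat1 was high in every cluster. Its median over 32 mice was 41276 CPM in Drd1+ projection neurons (lowest mouse 26289, highest 65373) and 43387 CPM in oligodendrocytes (29217 to 73055). Oligodendrocytes exceeded Drd1+ neurons in 17 of 32 mice, so the order of the 2 clusters was not set. Macrophages, the cluster of microglial markers, were lowest among the clusters with enough mice, at 18058 CPM (12235 to 31083). They lay below the Drd1+ neurons of the same mouse in 32 of 32 mice, by a median of 2.26-fold. Nxph1+ interneurons, at 26038 CPM, stood between these levels.

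Neat1 was highest in oligodendrocytes. Oligodendrocytes held 1138 CPM (633 to 1982) and Drd1+ neurons 7.16 CPM (3.56 to 11.1), a median difference of 162-fold that went the same way in 32 of 32 mice. Astrocyte libraries held 163 CPM (76.4 to 654), 23.4-fold over Drd1+ neurons, and endothelium 157 CPM, which was below astrocytes in 15 of 29 mice. Macrophages held 85.8 CPM and Drd2+ neurons 5.10 CPM. Oligodendrocyte RNA that reached other barcodes was read from the oligodendrocyte genes Mog and Mobp. As a percent of the mean oligodendrocyte level, Mog was at 2.63% in astrocytes, 3.83% in macrophages, 1.79% in endothelium, 0.451% in Drd1+ and 0.480% in Drd2+ neurons. Mobp was at 30.5%, 37.7%, 14.2%, 9.60% and 10.4% in the same order, and Neat1 at 15.98%, 8.08%, 13.8%, 0.601% and 0.526%. Neat1 lay between both genes in each of these 5 clusters, so they set no single background share, and whether these clusters express Neat1 cannot be read from them. The fibroblast cluster, with only 2 mice above 10 nuclei, had 752 CPM over its pooled nuclei, on 191 counts.

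Meg3, Rian and Mirg shared one pattern, high in neurons and low in glia. Meg3 had a median of 3857 CPM in Drd1+ neurons (2978 to 5010), 3483 CPM in Drd2+ neurons and 6364 CPM in Nxph1+ interneurons, and in oligodendrocytes it was 60.4 CPM, a median of 63.0-fold lower. Nxph1+ interneurons were above Slc17a7+ excitatory neurons, the next cluster, in 20 of 20 mice with both. The rare Sst+ and Chat+ interneurons had 7171 and 7208 CPM of Meg3 over pooled nuclei, with 2 and 3 mice above 10 nuclei. Rian was 1008 CPM in Nxph1+ interneurons, 780 in Drd1+ neurons, 712 in Drd2+ neurons, 677 in Slc17a7+ neurons, 670 in the second Drd1+ cluster and 28.9 in oligodendrocytes. Mirg was 203 CPM in Nxph1+ interneurons, 150 in Drd1+ neurons, 136 in Drd2+ neurons and 2.15 in oligodendrocytes.

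Meg3, Rian and Mirg were slightly lower in Drd2+ than in Drd1+ neurons. Meg3 was lower in Drd2+ than in Drd1+ neurons of the same mouse in 32 of 32 mice, with a median ratio of 0.916. Rian was lower in 32 of 32 mice (0.911) and Mirg in 26 of 32 (0.906). Snhg11 was also lower in 28 of 32 mice (0.978), and Snhg14 in 11 of 32 (1.01). Counts of Rian per 100 counts of Meg3 were 20.5 in Drd1+ neurons, 21.1 in endothelium, 25.8 in ependyma, 36.0 in astrocytes, 38.4 in macrophages and 45.7 in oligodendrocytes. In the polydendrocyte cluster they were 19.1.

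Snhg11 and Snhg14 were neuronal too. Snhg11 had a median of 4038 CPM in Nxph1+ interneurons, 3159 in Slc17a7+ neurons, 2617 in the second Drd1+ cluster, 1754 in Drd1+ neurons and 1714 in Drd2+ neurons. In oligodendrocytes and astrocytes it was 45.2 and 29.8 CPM. The second Drd1+ cluster, defined by Otof and Casz1, exceeded the main Drd1+ cluster in 32 of 32 mice, by a median of 1.49-fold. For Snhg14 the medians were 1226 CPM in Nxph1+ interneurons, 1027 in the second Drd1+ cluster, 808 in Drd1+ neurons, 828 in Drd2+ neurons and 81.3 in oligodendrocytes. The second Drd1+ cluster again exceeded the main one in 32 of 32 mice, by 1.28-fold, whereas Drd2+ neurons exceeded Drd1+ neurons in 21 of 32 mice.

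Miat was highest outside the projection neuron clusters. The cluster that the authors left as Unknown was highest, with a median of 367 CPM (163 to 673), followed by the excitatory clusters Slc17a7+ neuron with 246 and Slc17a7+ neuron_2 with 187 CPM. Unknown was above Slc17a7+ neuron in 16 of 18 mice with both. Unknown also had the highest pooled levels of the neuroblast markers Dcx (348 CPM), Sox11 (445 CPM) and Top2a (314 CPM). The rare Chat+ interneurons had 265 CPM of Miat over pooled nuclei, on 255 counts. Nxph1+ interneurons had 53.4 CPM, the second Drd1+ cluster 34.5, Drd2+ neurons 8.42, Drd1+ neurons 7.68 and oligodendrocytes 0.453. Miat was higher in the second than in the main Drd1+ cluster in 31 of 32 mice, by a median of 5.00-fold. The same 2 clusters differed by 1.49-fold in Snhg11 and 1.28-fold in Snhg14.

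**Figure D1:**
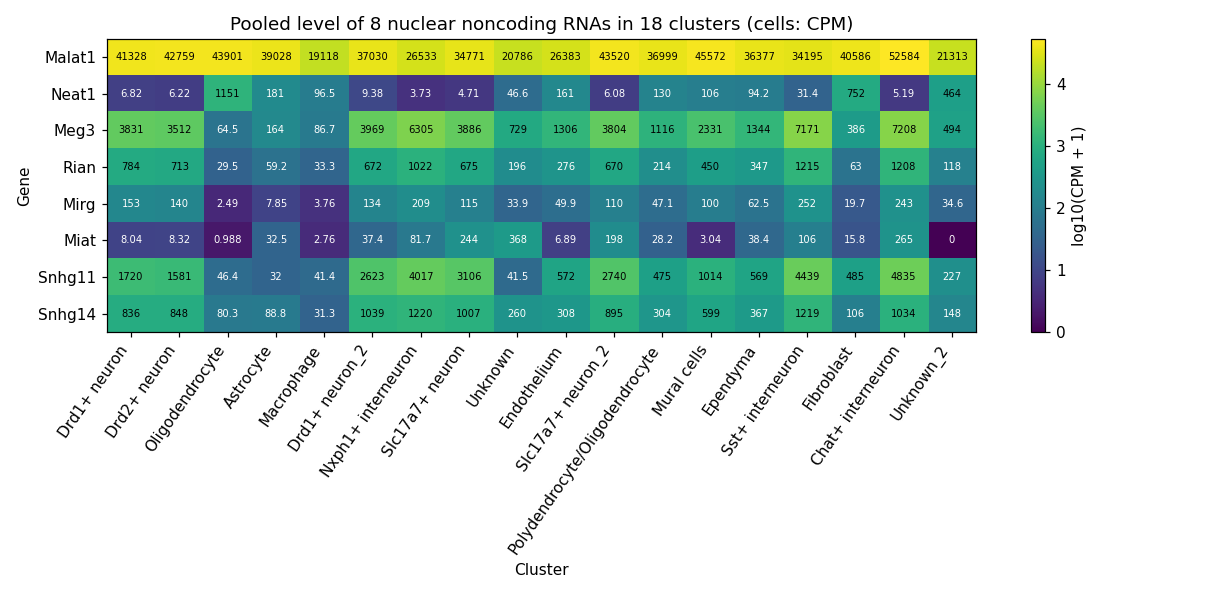
Pooled CPM of each of the 8 RNAs (rows) in each of the 18 annotated clusters (columns), colour on a log10 scale. Malat1 is high throughout, Neat1 is highest in oligodendrocytes, Miat in the Unknown cluster, followed by Chat+ interneurons and the excitatory clusters, and the other RNAs in neurons.

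Low levels of neuronal RNAs in glia can be read only beside the RNA of projection neurons that reached the same barcodes. In oligodendrocytes, Meg3 was at 1.68% of its Drd1+ neuron level, Rian at 3.76%, Mirg at 1.63%, Snhg11 at 2.70% and Snhg14 at 9.60%. Genes of projection neurons, which oligodendrocytes should lack, were at 0.848% to 77.4% there, from Ryr3 at the low end and Pde10a at 3.44% to Ppp1r1b at 77.4%. These genes spread so widely that they set no single background share, and whether oligodendrocytes express the 5 RNAs cannot be read from it. In endothelium, Meg3 was at 34.1%, Rian at 35.2%, Mirg at 32.5%, Snhg11 at 33.3% and Snhg14 at 36.9%, beside Rgs9 at 36.9%, Pde10a at 37.1% and Ryr3 at 37.2%. The 8 projection neuron genes ran from 22.8% to 77.2% in endothelium. Whether endothelium expresses these 5 RNAs was not tested. The median depth was 6505 counts per nucleus in Drd1+ neurons, 1640 in oligodendrocytes and 3821 in endothelium.

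Likeness of pattern, Pearson's r of log2 CPM over the 18 clusters among 15711 genes, put members of the Dlk1-Dio3 locus next to each other. For Meg3 the most similar genes were Mirg (0.994), Rian (0.991) and B830012L14Rik (0.986). Rian was also close to B830012L14Rik (0.992), and Mirg to Rtl1 (0.981), which overlaps the Meg3 and Rian gene models. Snhg14 was nearest to Rian (0.980), B830012L14Rik (0.978) and Meg3 (0.975), RNAs of another chromosome. For Snhg11 they were A230006K03Rik (0.976), Scn2a (0.974), a neuronal sodium channel, and Pla2g4e (0.966). Neat1 was nearest to Cox6b2 (0.938), Ppfibp2 (0.937) and Cers2 (0.919), Miat to Sept3 (0.931), Ube2ql1 (0.920) and Zfp786 (0.886), and Malat1 to C030047K22Rik (0.849), Dcaf6 (0.791) and Abca8b (0.789). The points share libraries and depth.

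Strain differences were tested with edgeR's quasi-likelihood test on the summed counts of each mouse, with batch in the model, in the 9 clusters where at least 3 mice of every strain had 10 nuclei. A gene was called at a Benjamini-Hochberg adjusted p under 0.05 over all genes tested. In Drd1+ neurons 6 of the 8 RNAs were called, where 61.7% of all genes were, and in Drd2+ neurons 7 of 8, against 55.9%. Oligodendrocytes had 3 of 6 tested (34.8% of all genes), astrocytes 5 of 7 (21.5%), macrophages 2 of 3 (24.7%), the second Drd1+ cluster 2 of 7 (17.5%), endothelium 1 of 7 (3.29%) and the polydendrocyte cluster 1 of 6 (1.24%). No member of 7 was called in Nxph1+ interneurons, where 1.4% of all genes were called by edgeR and 540 genes had an unadjusted p under 0.05. DESeq2 called Meg3 there (adjusted p = 0.0466). Members that were not tested in a cluster had too few counts. The median span of fitted strain means was 0.51 on the log2 scale for the members in Drd1+ neurons and 0.65 for all genes. In astrocytes it was 1.17 for the members and 0.74 for all genes.

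Single strains were next compared with the average of the 7 others. These contrasts use edgeR's TMM scaling factors and the CPM do not, so small contrasts need not follow the order of CPM means. In Drd1+ neurons the factors ran from 0.947 (A/J, batch 1) to 1.06 (PWK/PhJ, batch 4). Over 8 RNAs and 8 strains in Drd1+ neurons, 25 of 64 comparisons were called, where 20.4% of all such comparisons were called. Drd2+ neurons gave 24 of 64 (17.7% of all), oligodendrocytes 10 of 48 (10.5%) and astrocytes 8 of 56 (4.96%). NOD/ShiLtJ and PWK/PhJ each had 6 of 8 RNAs called in Drd1+ neurons, 1 higher and 5 lower in both, with 15.9% and 34.4% of all genes called in those strains. In NOD/ShiLtJ 9.39% of all genes were called higher and 6.5% lower, and in PWK/PhJ 17% and 17.3%. In WSB/EiJ none of the 8 was called there, against 16.9% of all genes. These comparisons share mice and are not independent.

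Among the 8 RNAs, Snhg11 had the strongest strain term. In Drd1+ neurons the PWK/PhJ mice of batches 1 to 4 had 2632, 2234, 2716 and 2527 CPM, and the 129S1/SvImJ mice had 2216, 2264, 2763 and 2475 CPM. The NZO/HlLtJ mice had 656, 645, 705 and 820 CPM. All 4 NZO/HlLtJ mice lay below every mouse of the other strains, whose lowest value was 1022 CPM, while PWK/PhJ and 129S1/SvImJ overlapped. Means between these were 2373 ± 193 CPM (SD, n = 4) in CAST/EiJ, 1868 ± 88.8 in C57BL/6, 1656 ± 73.3 in WSB/EiJ, 1353 ± 126 in NOD/ShiLtJ and 1167 ± 128 in A/J. The strain term gave edgeR F = 133 and adjusted p = 8.18e-25, rank 25 of 13431 genes.

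Against the mean of the other 7 strains, Snhg11 in Drd1+ neurons was lower in NZO/HlLtJ by a log2 change of -1.39 (SE 0.06), in A/J by -0.51 and in NOD/ShiLtJ by -0.33. It was higher in PWK/PhJ (0.68), 129S1/SvImJ (0.67), CAST/EiJ (0.64) and C57BL/6 (0.25). WSB/EiJ was the 1 strain of 8 without a call. The strains had the same order of means in Drd2+ neurons, from 2581 ± 247 CPM in PWK/PhJ to 468, 488, 550 and 564 CPM in the NZO/HlLtJ mice, which again lay below all others (lowest 811 CPM). There the contrasts reached -1.72 (SE 0.08) in NZO/HlLtJ, -0.67 in A/J, -0.62 in NOD/ShiLtJ and 0.88 in PWK/PhJ, and edgeR's adjusted p for strain was 1.02e-21. The second Drd1+ cluster also put NZO/HlLtJ (994, 888, 1031 and 1367 CPM) below all other mice, and PWK/PhJ had 3830 ± 442 CPM. Median depth in Drd1+ nuclei was 6106 counts in NZO/HlLtJ, within the range of 5892 (PWK/PhJ) to 7049 (A/J).

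**Figure D2:**
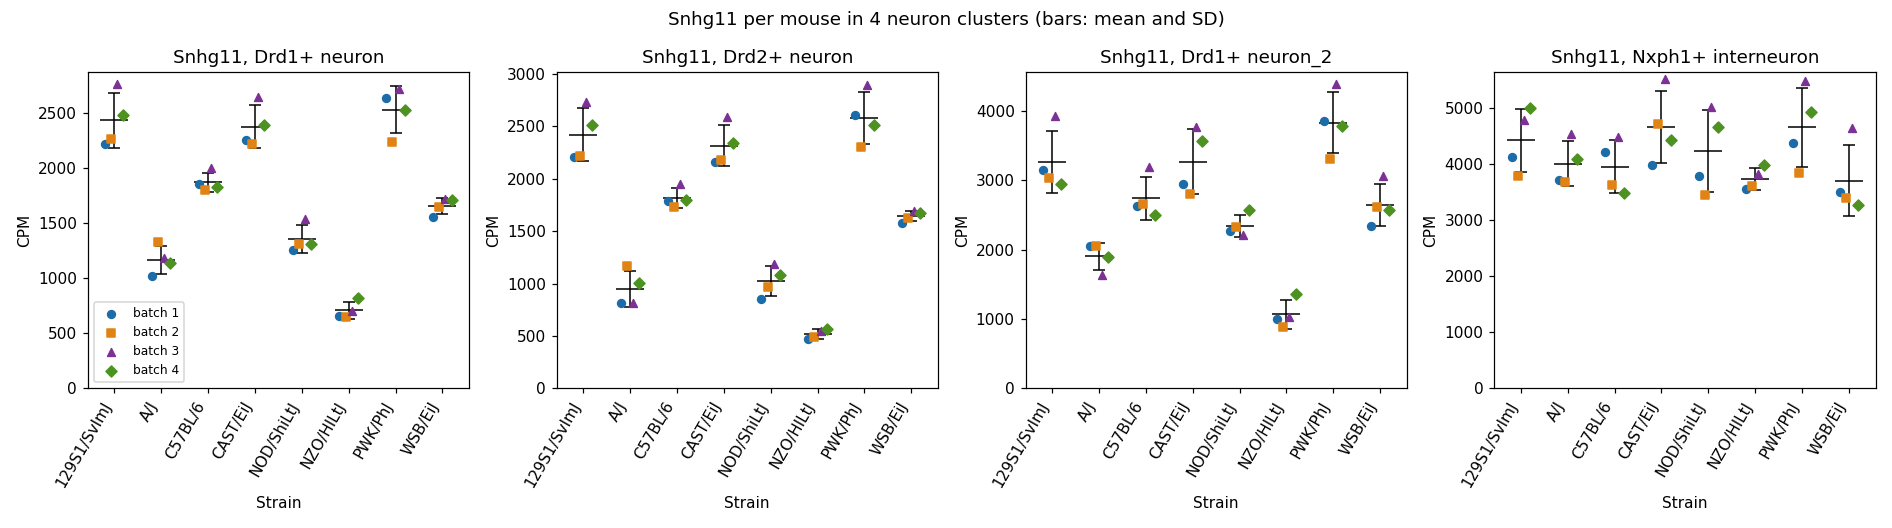
Snhg11 CPM per mouse (y axis, from 0) for the 8 strains (x axis) in Drd1+ neurons, Drd2+ neurons, the second Drd1+ cluster and Nxph1+ interneurons; points are mice, marked by batch, and bars are the mean and SD. The NZO/HlLtJ mice sit below all others in the projection neuron panels and among them in Nxph1+ interneurons.

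Nxph1+ interneurons of the same mice kept this order only in part. CAST/EiJ, PWK/PhJ and 129S1/SvImJ again had the highest means, and NZO/HlLtJ was above WSB/EiJ alone. The highest and lowest strain means differed by 1.26-fold, against 3.58-fold in Drd1+ neurons. Snhg11 in Nxph1+ interneurons was 3557, 3598, 3813 and 3976 CPM in NZO/HlLtJ, 4651 ± 706 in PWK/PhJ, 4657 ± 643 in CAST/EiJ and 3698 ± 632 in WSB/EiJ. The strains overlapped, and strain was not called (edgeR adjusted p = 0.674). Per mouse, the ratio of Nxph1+ to Drd1+ levels averaged 5.31-fold in NZO/HlLtJ, 3.43 in A/J, 3.10 in NOD/ShiLtJ, 1.83 in PWK/PhJ and 1.81 in 129S1/SvImJ. The interaction of strain and cluster, a comparison added after the values were seen, was called for Snhg11 (edgeR F = 13.6, adjusted p = 4.47e-11) and for no other of the 8 RNAs, against 1.81% of all genes. Hence the strain differences of Snhg11 differed between these 2 neuron types. This interaction was run in the main fit only, not with batches left out or under other settings.

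Between Drd1+ and Drd2+ neurons, Snhg11 was again the 1 member of 8 with a called interaction (edgeR F = 33.3, adjusted p = 3.39e-22; 4.55% of all genes). The log2 ratio of Drd2+ to Drd1+ levels was -0.45 ± 0.08 (SD, n = 4) in NZO/HlLtJ, -0.41 ± 0.11 in NOD/ShiLtJ and -0.31 ± 0.16 in A/J. It was -0.04 in C57BL/6 and CAST/EiJ, -0.01 in WSB/EiJ and 129S1/SvImJ, and 0.03 ± 0.05 in PWK/PhJ. Thus the 3 strains with the lowest Snhg11 in Drd1+ neurons had lower levels still in Drd2+ neurons. Between the main and the second Drd1+ cluster, an interaction also added after the values were seen was not called for Snhg11 (edgeR adjusted p = 0.394). It was called by edgeR for Malat1 (adjusted p = 0.000303), Meg3 (0.000212) and Rian (0.00746), against 4.24% of all genes. This interaction too was run in the main fit only, so how far its calls depend on single batches is not known.

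In endothelium Snhg11 was called too (edgeR adjusted p = 0.0280), with 1380 ± 572 CPM in PWK/PhJ and 234 ± 119 in NZO/HlLtJ. This call was lost without batch 1 (0.309) and without batch 2 (0.162). Projection neuron RNAs in the same libraries (Rgs9, Pde10a and Ryr3, summed) were 3313 CPM in PWK/PhJ, 2921 in NOD/ShiLtJ, 1929 in NZO/HlLtJ and 1357 in CAST/EiJ. Their part in the endothelial difference was not tested. In oligodendrocytes, where Snhg11 ranged from 39.2 CPM in CAST/EiJ to 59.5 in PWK/PhJ, strain was not called (0.129), and the interaction with Drd1+ neurons was (5.43e-07). The interaction of Drd1+ neurons and astrocytes was called for Snhg11 as well (0.0171), but not without batch 1 (0.289) or batch 2 (0.125).

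Meg3, Rian and Mirg were lower in NOD/ShiLtJ and PWK/PhJ in the main Drd1+ and the Drd2+ clusters. In the second Drd1+ cluster, where edgeR did not call strain for Meg3 (adjusted p = 0.0572), PWK/PhJ had the highest mean of Meg3, at 4588 ± 411 CPM. DESeq2 called strain for Meg3 there (adjusted p = 0.00259), as did edgeR with RLE scaling (0.0464) or nuclei of at least 1000 UMIs (0.0416). In Drd1+ neurons Meg3 was 3269, 3182, 3886 and 3324 CPM in the NOD/ShiLtJ mice of batches 1 to 4 and 4041, 3922, 5010 and 4667 CPM in the NZO/HlLtJ mice. NZO/HlLtJ was above NOD/ShiLtJ in each batch, and the ranges of the 2 strains did not overlap. PWK/PhJ averaged 3462 ± 412 CPM and C57BL/6 3701 ± 474. The edgeR strain term had an adjusted p of 2.55e-08, with contrasts of -0.22 (SE 0.04) in NOD/ShiLtJ, -0.23 in PWK/PhJ and 0.21 in NZO/HlLtJ.

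Rian in Drd1+ neurons was 626, 720, 637 and 630 CPM in NOD/ShiLtJ and 869, 923, 789 and 926 CPM in CAST/EiJ, again without overlap of these 2 strains. PWK/PhJ had 698 ± 28.9 CPM and 129S1/SvImJ 854 ± 129. The contrasts were -0.31 in NOD/ShiLtJ, -0.22 in PWK/PhJ, 0.22 in CAST/EiJ and 0.17 in 129S1/SvImJ, and edgeR's adjusted p for strain was 2.84e-06. The PWK/PhJ call was lost without batch 2, and that of 129S1/SvImJ without batch 1 or batch 2. In A/J, Meg3 averaged 3989 ± 433 CPM and Rian 699 ± 55.6. Counts of Rian per 100 of Meg3 ran from 17.8 ± 3.19 in A/J to 22.6 ± 3.16 in CAST/EiJ.

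Mirg had 120, 105, 147 and 124 CPM in the NOD/ShiLtJ mice and 177, 170, 237 and 195 CPM in the NZO/HlLtJ mice, which did not overlap. Its contrasts in Drd1+ neurons were -0.39 in NOD/ShiLtJ, -0.29 in PWK/PhJ, 0.37 in NZO/HlLtJ, 0.31 in 129S1/SvImJ and 0.19 in C57BL/6 (edgeR adjusted p for strain 2.48e-09). The C57BL/6 call was lost without batch 1, batch 3 or batch 4. In Drd2+ neurons the 3 RNAs were again lower in NOD/ShiLtJ (Meg3 -0.20, Rian -0.26, Mirg -0.29) and PWK/PhJ (-0.25, -0.27 and -0.35). The Mirg call in NOD/ShiLtJ was lost there without batch 3 or batch 4. Meg3 (0.19) and Mirg (0.39) were higher in NZO/HlLtJ, and Rian was higher in CAST/EiJ (0.20) and 129S1/SvImJ (0.20), calls that were lost without batch 2 or batch 4 and, for 129S1/SvImJ, also without batch 1. Meg3 was higher in A/J (0.13), which was lost without batch 1 or batch 2. No interaction of the 2 projection neuron types was called for these 3 RNAs (edgeR adjusted p = 0.963, 0.972 and 0.881).

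**Figure D3:**
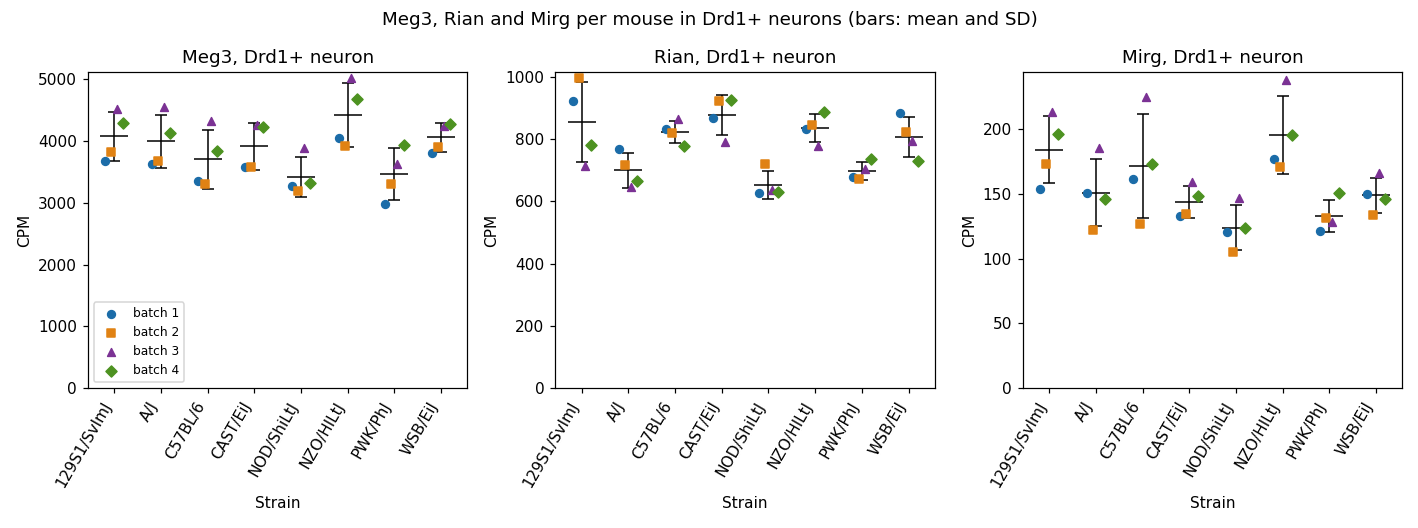
Meg3, Rian and Mirg CPM per mouse in Drd1+ neurons (y axes, from 0) for the 8 strains (x axis); points are mice, marked by batch, and bars are the mean and SD. NOD/ShiLtJ and PWK/PhJ have low means in each panel, and NZO/HlLtJ has the highest mean of Meg3 (4410 CPM) and Mirg (195 CPM).

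In astrocytes Meg3 and Rian were a median of 22.7-fold and 14.3-fold below their Drd1+ level, and the order of strains was another. Meg3 averaged 231 ± 45.3 CPM in PWK/PhJ and 94.8 ± 44.6 in C57BL/6 (edgeR adjusted p for strain 0.0234), and Rian 73.2 ± 33.0 and 31.7 ± 15.6 (0.00116). Both calls were lost without batch 2 (0.328 and 0.103). Rian was lower in A/J (-0.83), a call lost without batch 2 or batch 4, and in C57BL/6 (-0.89), lost without batch 1, batch 3 or batch 4. The interaction with Drd1+ neurons was called for Meg3 (1.47e-05) and Rian (0.00239), the latter not without batch 2 (0.0779). Projection neuron RNAs (Rgs9, Pde10a and Ryr3), summed over the same astrocyte libraries, were 151 CPM in PWK/PhJ, 224 in C57BL/6 and 370 in NZO/HlLtJ. Their part in the result was not tested. In the polydendrocyte cluster Rian was called (0.0443) on 0 to 50 counts per mouse, and the call was lost without any 1 of the 4 batches (0.0820 to 0.297).

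The list of 9 Dlk1-Dio3 genes, Meg3, Rian and Mirg included, had 5 called genes of 8 tested for Drd1+ neurons, 5 of 7 for Drd2+ neurons, 0 of 5 for oligodendrocytes and 2 of 4 for astrocytes (Meg3 and Rian), beside 61.7%, 55.9%, 34.8% and 21.5% of all genes. The other called genes in Drd1+ neurons were Rtl1, a retrotransposon-derived gene of the paternal copy, at 27.5 ± 5.54 CPM in CAST/EiJ, its highest strain, and Begain, at 44.7 ± 4.48 in NZO/HlLtJ and 30.2 ± 4.35 in A/J. Median spans on the log2 scale were 0.51 for the list and 0.65 for all genes in these neurons.

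Snhg14 was highest in A/J in the Drd1+ and Drd2+ clusters. The A/J mice had 916, 1012, 813 and 980 CPM in Drd1+ neurons and the CAST/EiJ mice 742 ± 31.6 CPM, and the lowest A/J mouse was above the highest CAST/EiJ mouse (767 CPM). The contrast was 0.27 in A/J, -0.16 in PWK/PhJ, -0.15 in NOD/ShiLtJ and -0.12 in CAST/EiJ (edgeR adjusted p for strain 6.91e-06). The CAST/EiJ call was lost without any 1 batch, the NOD/ShiLtJ call without batch 1, batch 2 or batch 4, and the PWK/PhJ call without batch 2 or batch 4. In Drd2+ neurons A/J was higher (0.21) and CAST/EiJ lower (-0.17), the latter not without batch 1 or batch 2. In oligodendrocytes Snhg14 had another order of strains, with 105, 104, 155 and 115 CPM in CAST/EiJ against 68.9, 67.1, 58.3 and 42.7 in WSB/EiJ, on 15 to 151 counts per mouse over all strains. These 2 strains did not overlap (contrasts 0.57 and -0.53; edgeR adjusted p for strain 0.000727). Projection neuron RNAs (Rgs9, Pde10a and Ryr3), summed over the same libraries, were 139 ± 52.6 CPM in CAST/EiJ and 140 ± 45.1 in WSB/EiJ. Without batch 4 the strain call (0.0790), the WSB/EiJ call and the interaction with Drd1+ neurons (0.00132; 0.0887 without batch 4) were lost.

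Among the 11 genes of the Prader-Willi and Angelman locus, Snhg14 included, 7 of 8 tested were called for each projection neuron type, 1 of 6 for oligodendrocytes and 1 of 6 for astrocytes, where 61.7% (Drd1+), 55.9% (Drd2+), 34.8% and 21.5% of all genes were. Gabrg3, a GABA-A receptor subunit, had 1449 ± 129 CPM in A/J and 447 ± 24.2 in CAST/EiJ Drd1+ neurons, and Snrpn, which shares its locus with Snhg14, 226 ± 11.4 in A/J and 171 ± 21.8 in PWK/PhJ. Since Snrpn and Ube3a overlap Snhg14, their counts may not be separate.

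Neat1 differed between strains in the oligodendrocyte and astrocyte libraries. In oligodendrocytes the C57BL/6 mice had 1431, 1465, 1802 and 1498 CPM, and the WSB/EiJ mice 650, 633, 963 and 710 CPM. NZO/HlLtJ had 868, 852, 753 and 773 CPM. Every C57BL/6 mouse was above every WSB/EiJ and NZO/HlLtJ mouse. The contrasts were 0.55 in C57BL/6, 0.42 in CAST/EiJ, 0.31 in NOD/ShiLtJ, -0.48 in NZO/HlLtJ and -0.73 in WSB/EiJ (edgeR adjusted p for strain 3.96e-08). The NOD/ShiLtJ call was lost without batch 1 or batch 4.

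In astrocytes the highest Neat1 was in CAST/EiJ, with 324, 262, 654 and 318 CPM in batches 1 to 4, against 108, 76.4, 130 and 96.8 in PWK/PhJ. CAST/EiJ and PWK/PhJ did not overlap, while CAST/EiJ overlapped with NOD/ShiLtJ, at 228 ± 51.4 CPM. The contrasts were 1.09 (SE 0.12) in CAST/EiJ, 0.44 in NOD/ShiLtJ and -0.86 in PWK/PhJ, and edgeR's adjusted p for strain was 1.45e-12. The NOD/ShiLtJ call was lost without batch 2, batch 3 or batch 4. The geometric mean ratio of astrocyte to oligodendrocyte Neat1 was 0.249 in CAST/EiJ and 0.0974 in PWK/PhJ. Mog and Mobp summed over the astrocyte libraries were 545 ± 128 CPM in CAST/EiJ and 499 ± 186 in PWK/PhJ, and their part in the result was not tested. The interaction with Drd1+ neurons was called for oligodendrocytes (0.00901), but not without batch 1 (0.145) or batch 4 (0.134), and for astrocytes (0.0119), but not without batch 1 (0.391).

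Neuronal Neat1 rested on few counts. In Drd1+ neurons strain means were 6.06 CPM in C57BL/6 to 8.67 in CAST/EiJ on 10 to 47 counts per mouse, and strain was not called (edgeR adjusted p = 0.651). In Drd2+ neurons Neat1 was called (0.0248), with 12.7, 11.4, 8.91 and 4.89 CPM in NZO/HlLtJ and a contrast of 0.76 (SE 0.21) that was lost without batch 1. That strain call was lost without batch 1 (0.0811), batch 2 (0.169) or batch 3 (0.0738) and in DESeq2 (0.0528). Neat1 in macrophages was called (0.0260), at 158 ± 58.0 CPM in C57BL/6 and 48.3 ± 23.5 in WSB/EiJ, but not without batch 1 (0.299), batch 3 (0.150) or batch 4 (0.0927). All macrophage nuclei together held 385 counts of Neat1. Mog and Mobp, summed, were 716 CPM in C57BL/6 and 731 in WSB/EiJ macrophages. In oligodendrocytes, C57BL/6 and WSB/EiJ also had the highest and lowest Neat1, and the part of oligodendrocyte RNA in the macrophage result was not tested.

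Miat stood out in CAST/EiJ astrocytes. The 4 CAST/EiJ mice had 112, 123, 261 and 130 CPM on 10 to 61 counts, above every mouse of the other strains (highest 64.6 CPM). The A/J mice had 15.7, 8.29, 16.5 and 6.63 CPM, and 2 of 4 PWK/PhJ mice had no count. All astrocyte nuclei together held 365 counts of Miat, so the A/J values rest on few counts. Against the other 7 strains the log2 change was 2.75 (SE 0.23) in CAST/EiJ and -1.46 in A/J, and edgeR's adjusted p for strain was 1.69e-12. The A/J call was lost without batch 2 or batch 4, and the CAST/EiJ call was kept without any 1 batch. In Drd1+ neurons Miat means ran from 6.63 CPM in CAST/EiJ to 10.4 in NZO/HlLtJ (0.486, not called), and the interaction of the 2 clusters was called (1.82e-12).

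Markers of other cells that hold Miat were measured in the same astrocyte libraries. Neuroblast markers (Dcx, Sox11 and Top2a, summed) were 32.8 CPM in CAST/EiJ (25.8 to 48.5 over mice), within strain means of 16.4 in NOD/ShiLtJ to 48.7 in C57BL/6. Excitatory markers were 27.0 CPM in CAST/EiJ, the highest of strain means from 11.5. Astrocyte markers were 4374 CPM in CAST/EiJ and 3099 to 3762 in the other strains. Their part in the Miat result was not tested.

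In the second Drd1+ cluster Miat was called as well (edgeR adjusted p = 0.0163). The WSB/EiJ mice had 46.1, 62.5, 113 and 72.7 CPM and NZO/HlLtJ averaged 19.3 ± 3.97, on 3 to 16 counts per mouse. The call was lost without batch 2 (0.0737), batch 3 (0.203) or batch 4 (0.148) and in DESeq2.

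**Figure D4:**
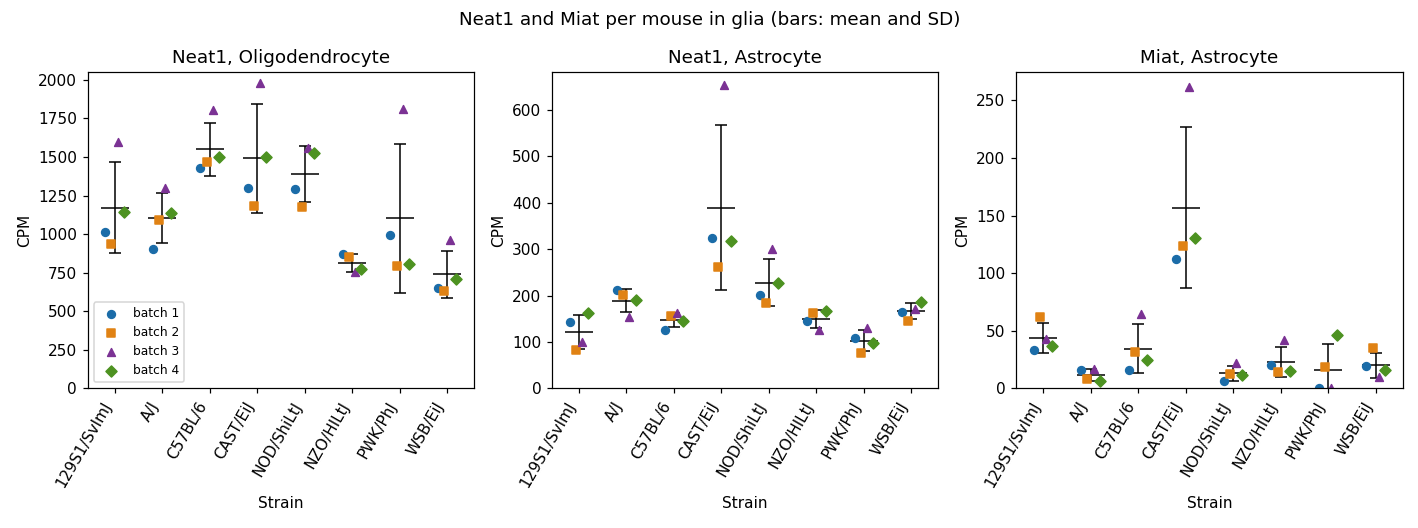
Neat1 in oligodendrocytes, Neat1 in astrocytes and Miat in astrocytes, CPM per mouse (y axes, from 0) for the 8 strains (x axis); points are mice, marked by batch, and bars are the mean and SD. The CAST/EiJ mice are above all others for Miat, and the batch 3 mouse (654 CPM of Neat1, 261 CPM of Miat) is the highest of them in astrocytes. That mouse had only 23 astrocyte nuclei.

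Malat1 differed between batches in every strain. Over the 8 strains its mean in Drd1+ neurons was 34189 CPM in batch 1, 37030 in batch 2, 57030 in batch 3 and 43530 in batch 4, and in oligodendrocytes 38519, 39556, 62271 and 44111. Batch 3 was highest in all 8 strains in both clusters. The batch term was called (edgeR F = 36.9, adjusted p = 4.44e-07 in Drd1+ neurons; F = 65.8, adjusted p = 7.43e-13 in oligodendrocytes). Batch 3 also had the fewest counts per nucleus, with a median of 5014 against 6839 to 6934 in Drd1+ neurons and 1314 against 1672 to 1780 in oligodendrocytes. Its mitochondrial share was the lowest, at 0.805% against 1.19% to 1.22% in Drd1+ neurons and 1.95% against 3.73% to 4.31% in oligodendrocytes. Nuclei of a cluster were also split into 4 groups by their counts per nucleus. From the lowest to the highest group, Malat1 went from 36855 to 43647 CPM in Drd1+ neurons and from 39162 to 43894 in Drd2+ neurons. In oligodendrocytes it went from 41373 to 45717 CPM, and in astrocytes from 38748 to 38243. The part of depth and mitochondrial share in the level of Malat1 was not tested.

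Other members followed the batch in Drd1+ neurons: 5 of 8 were called, against 24.8% of all genes. Meg3 averaged 3539, 3587, 4298 and 4080 CPM in batches 1 to 4 (edgeR adjusted p = 4.82e-06), and Snhg14 843, 841, 748 and 818 (0.000121). Mirg (8.64e-05) and Rian (0.0194) were the others. Without batch 3, 2 of 8 were called. In oligodendrocytes 3 of 6 were called, against 17.8% of all genes, namely Malat1, Neat1 with 1057, 1017, 1471 and 1136 CPM (0.000278) and Rian (0.0244), and without batch 3 none of the 6 was. Hence Meg3 and Malat1 were higher in batch 3 where Snhg14 was lower. From the lowest to the highest depth group of Drd1+ neurons, Snhg14 went from 759 to 889 CPM and Meg3 from 3873 to 3732. The part of depth in these batch differences was not tested.

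Within batches, Malat1 still differed between strains. In Drd1+ neurons NOD/ShiLtJ had 40002, 46281, 65373 and 52302 CPM in batches 1 to 4, the highest strain in each, and PWK/PhJ 31956, 30152, 51984 and 33797 CPM. The contrasts were 0.27 (SE 0.07) and -0.29 (SE 0.08), and edgeR's adjusted p for strain was 0.00364. Both contrasts and the strain term (0.101) were lost without batch 2. In Drd2+ neurons NOD/ShiLtJ was higher (0.29), PWK/PhJ lower (-0.23; lost without batch 4) and WSB/EiJ lower (-0.19; lost without batch 1 or batch 2).

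The PWK/PhJ strain was at the other end in oligodendrocytes, with 48862, 50058, 73055 and 49932 CPM of Malat1 and a contrast of 0.32. NZO/HlLtJ was higher (0.24) and 129S1/SvImJ lower (-0.27), both lost without batch 2 or batch 3 (edgeR adjusted p for strain 8.03e-06). The log2 ratio of oligodendrocyte to Drd1+ levels was 0.60 in PWK/PhJ, 0.39 in NZO/HlLtJ, -0.12 in 129S1/SvImJ and -0.24 in NOD/ShiLtJ. This interaction was called (0.00574), but not without batch 2 (0.0656). In macrophages A/J averaged 23180 ± 5435 CPM and CAST/EiJ 15813 ± 3005 (2.35e-06). In astrocytes PWK/PhJ was higher (0.24), lost without batch 1, batch 2 or batch 3, and the strain term (0.00388) was lost without batch 1 (0.141) or batch 2 (0.205). Without batch in the model, edgeR called Malat1 in none of the 9 clusters, and its adjusted p was 0.620 for Drd1+ cells, 0.700 for Drd2+ cells, 0.639 for oligodendrocytes, 0.693 for astrocytes and 0.512 for macrophages.

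**Figure D5:**
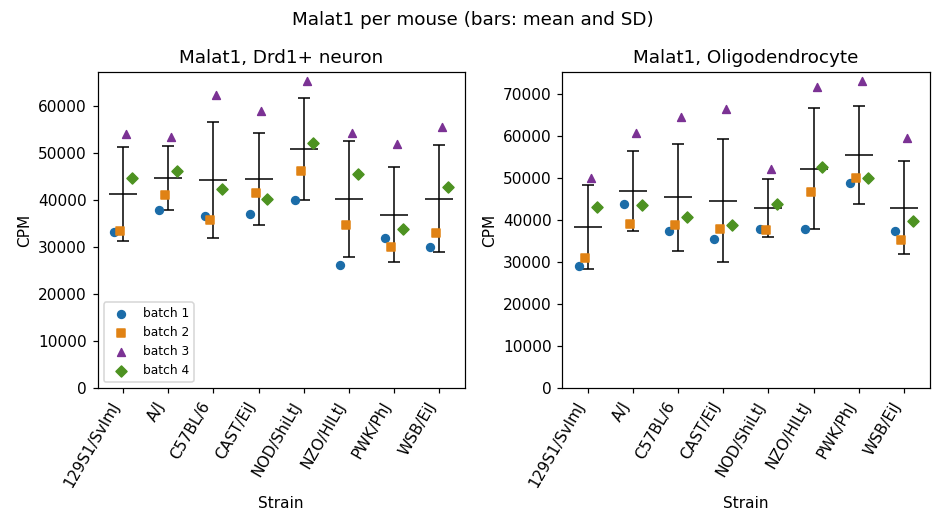
Malat1 CPM per mouse in Drd1+ neurons and oligodendrocytes (y axes, from 0) for the 8 strains (x axis); points are mice, marked by batch, and bars are the mean and SD. The batch 3 mouse is the highest in every strain, up to 65373 CPM in Drd1+ neurons and 73055 CPM in oligodendrocytes, so SDs within a strain are wide.

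Genes that encode proteins of the same nuclear bodies were counted from lists by their RNA, and no protein was measured. Of 10 paraspeckle protein genes, strain was called for 5 in Drd1+ cells, 4 in Drd2+ cells, 3 in oligodendrocytes and 1 in astrocytes. The shares of all genes called there were 61.7%, 55.9%, 34.8% and 21.5%, which hold for the lists that follow too. Sfpq, which binds Neat1, had 234 ± 40.7 CPM in NZO/HlLtJ and 133 ± 25.9 in PWK/PhJ Drd1+ neurons. Of 13 nuclear speckle protein genes, 10, 8, 6 and 2 were called in these clusters, among them the splicing factor Srsf2 with 129 ± 19.9 CPM in PWK/PhJ and 79.1 ± 17.4 in NZO/HlLtJ Drd1+ neurons. Of 4 genes of Miat-binding splicing factors, 3 of 4 were called in both projection neuron types and 0 of 3 in either glial cluster, with Celf3 at 87.9 ± 9.35 CPM in NZO/HlLtJ and 57.3 ± 2.74 in NOD/ShiLtJ Drd1+ neurons. Srsf1 is in this list and in that of nuclear speckles.

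Other noncoding RNAs were counted in the same way, and 26 of the 27 listed were in the files. Strain was called for 17 of 25 tested in Drd1+ cells and 14 of 25 in Drd2+ cells. In oligodendrocytes it was called for 8 of 21 and in astrocytes for 4 of 21. The list was thus called about as often as all genes. Gas5, another host of small nucleolar RNAs, had 287 ± 28.1 CPM in A/J and 113 ± 26.8 in WSB/EiJ Drd1+ neurons. Pvt1 had 214 ± 4.31 CPM in CAST/EiJ and 20.6 ± 14.2 in PWK/PhJ oligodendrocytes. Of 24 other imprinted genes, the called were 11 of 17 tested for Drd1+ cells, 12 of 19 for Drd2+ cells, 3 of 14 for oligodendrocytes and 2 of 12 for astrocytes. Mest, a paternally expressed gene, had 32.0 ± 5.81 CPM in NOD/ShiLtJ and 8.16 ± 1.74 in CAST/EiJ Drd1+ neurons. These shares stand beside 61.7%, 55.9%, 34.8% and 21.5% of all genes in the 4 clusters.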

How the data were processed

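Gene expression was read from 4 deposited count matrices of unnormalised UMI counts, 1 per batch, which the authors made with Cell Ranger ARC 2.0.0 (bcl2fastq 2.20.0.422, GRCm38/mm10), per the submitters' processing notes. Whether intronic reads were counted is not given in the sources used here. Strain, cluster and quality values came from the authors' deposited table of categories for 55672 of 89339 barcodes (more than 200 and fewer than 7500 genes, under 15% mitochondrial counts and doublets removed, per the deposited table and labels). The deposited peak list gave positions. No doublet caller was run here.

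Counts of annotated nuclei were summed per mouse and cluster (at least 10 nuclei) and given as CPM of the library total. Strain and batch were tested with edgeR 4.0.16 (quasi-likelihood, robust, TMM scaling, filterByExpr by strain, strain plus batch) with Benjamini-Hochberg adjustment over all genes. Interactions had the mouse as block. DESeq2 1.42.0, RLE scaling, no filter, totals without the members, nuclei of at least 1000 UMIs, nuclei under 1% mitochondrial counts, no block and each batch left out were alternatives. R 4.3.3, Python 3.11.15 and pandas 2.3.3 were used, and the fits were tested on simulated data. Replicates 1 to 4 are batches 1 to 4: the labels say that each batch pooled 1 mouse of each strain, which is the source of the block. Contrasts and fold changes are on the log2 scale.

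The RNAs, gene lists and markers were chosen with earlier results of these data known. Named genes were all 8 RNAs, the 3 genes nearest in pattern to each, and, from each list and cluster, up to 3 called genes of at least 10 CPM with the largest span of strain means. Likeness used log2(CPM + 1) and genes of at least 10 CPM in a cluster. RefSeq sequences are of GRCm38.p6.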

Additional observations from a re-analysis of the deposited data

Results flagged for a closer look

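Among 168 groups of 4 mice of 1 strain, 11 had a mouse far from the other 3 by Dixon's criterion, where chance gives about 1 in 20 groups. Malat1 of batch 3 made up 7 of them. In Drd1+ neurons the PWK/PhJ mouse of batch 3 had 51984 CPM of Malat1 against 30152 to 33797 in the others. For oligodendrocytes the batch 3 mouse had 64486 CPM of Malat1 in C57BL/6 (others 37502 to 40862), 66459 in CAST/EiJ (35524 to 38786) and 73055 in PWK/PhJ (48862 to 50058). For astrocytes it had 50647 CPM of Malat1 in C57BL/6 (33212 to 35612), 63788 in CAST/EiJ (41066 to 42795) and 55059 in PWK/PhJ (42651 to 43758). All 7 mice were the highest of their strain. In astrocytes the CAST/EiJ mouse of batch 3 was also apart in Neat1, with 654 CPM against 262 to 324, and in Miat, with 261 CPM against 112 to 130. Its astrocyte library was small, with 23 nuclei and 38252 counts, against 135 to 249 nuclei in the other CAST/EiJ mice. In Drd1+ neurons the NOD/ShiLtJ mouse of batch 2 had 720 CPM of Rian (others 626 to 637), and the 129S1/SvImJ mouse of batch 3 had 756 CPM of Snhg14 (others 842 to 849).

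For the 3 planned pairs of clusters, strain differences differed between clusters of the same mice in 10 tests of the interaction, by edgeR's quasi-likelihood test with Benjamini-Hochberg adjustment. For Drd1+ with Drd2+ neurons this was Snhg11 (adjusted p = 3.39e-22). For Drd1+ neurons with oligodendrocytes these were Malat1 (0.00574), Neat1 (0.00901), Snhg11 (5.43e-07) and Snhg14 (0.00132), 4 of 8 RNAs against 16.7% of all genes. For Drd1+ neurons with astrocytes these were Neat1 (0.0119), Meg3 (1.47e-05), Rian (0.00239), Miat (1.82e-12) and Snhg11 (0.0171), 5 of 8 RNAs against 11.4% of all genes. With single batches left out, calls were lost for Malat1, Neat1 and Snhg14 with oligodendrocytes and for Neat1, Rian and Snhg11 with astrocytes. The part of projection neuron RNA in the glial libraries was not tested.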

How the results depend on the processing

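No strain contrast called in the main fit changed its direction under any alternative that was run. Direction was not compared for contrasts without a call, and the strain, batch and interaction terms have none. The interactions added after the values were seen were run in the main fit only. Without the replicate block (batch left out of the model), called members fell from 6 to 5 in Drd1+ neurons, from 7 to 5 in Drd2+ neurons, from 3 to 2 in oligodendrocytes, from 5 to 4 in astrocytes, from 2 to 1 in macrophages, from 1 to 0 in endothelium and from 1 to 0 in the polydendrocyte cluster, and calls among strain contrasts fell from 25 to 18 in Drd1+ neurons, from 24 to 15 in Drd2+ neurons, from 10 to 4 in oligodendrocytes and from 8 to 5 in astrocytes. DESeq2 called 1 member in macrophages, 1 in Nxph1+ interneurons (edgeR 0), 3 in the second Drd1+ cluster and 2 in the polydendrocyte cluster. Without the expression filter 1 member was called in the second Drd1+ cluster, 2 in endothelium and 2 in the polydendrocyte cluster.

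Leaving out 1 batch at a time gave 2 to 5 called members in astrocytes, 1 to 2 in macrophages, 1 to 2 in the second Drd1+ cluster, 0 to 1 in endothelium and 0 to 1 in the polydendrocyte cluster. It gave 4 to 7 contrast calls in astrocytes, 2 to 4 interactions with oligodendrocytes, 3 to 6 with astrocytes, 2 to 5 batch calls in Drd1+ neurons and 0 to 3 in oligodendrocytes. Contrasts that lost their call without the block numbered 25. DESeq2 ended the calls of Rian in A/J and C57BL/6 astrocytes, Malat1 in PWK/PhJ astrocytes and Rian in 129S1/SvImJ Drd1+ neurons. Nuclei under 1% mitochondrial counts ended those of Snhg14 in A/J and Neat1 in NZO/HlLtJ Drd2+ neurons, among others. Of the strain contrasts, 2328 values kept their side of the threshold, 94 lost it and 26 gained it. The setting of nuclei under 1% mitochondrial counts left too few mice outside Drd1+ and Drd2+ neurons and was not run there or for interactions with glia. Counts per mouse were low for Miat in Drd1+ and Drd2+ neurons and astrocytes, Neat1 in neurons and macrophages, and Snhg14 in oligodendrocytes. Rare clusters had few mice.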
